A study of Homo sapiens with 3 samples.

Results

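Epithelial-mesenchymal transition (EMT) genes were examined in HCT-116 cells after silencing of *APC*. The 10 genes, chosen by name, are the transcription factors *SNAI1*, *SNAI2*, *ZEB1*, *ZEB2* and *TWIST1*, the mesenchymal markers *VIM*, *CDH2* and *FN1*, and the epithelial regulators *ESRP1* and *GRHL2*. All 10 have a row among the 23131 gene rows of the deposited transcriptome table. HCT-116 is a colon carcinoma line that is wild-type for *APC* and carries CTNNB1ΔSer45, a β-catenin that resists degradation, so WNT signaling is already active in every library. Cells received either a pool of anti-*APC* siRNA, a pool of scrambled siRNA, or reagent without siRNA (titled untransfected, with mock in the treatment label), on 2 consecutive days, and RNA was collected 48 hours after the second transfection. Each condition has 1 library. The values used here are FPKM (fragments scaled to transcript length and library size) of cells given anti-*APC* siRNA, called silenced cells here, and of untransfected cells. No values of the scrambled siRNA library were used here, so a response to *APC* loss and a response to siRNA delivery cannot be told apart.

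In EMT, epithelial cells lose junctions and polarity and take up a motile, mesenchymal state. SNAIL factors (*SNAI1*, *SNAI2*) and ZEB factors (*ZEB1*, *ZEB2*) bind E-box sequences and repress junction genes such as *CDH1*, which encodes E-cadherin, and the basic helix-loop-helix factor TWIST1 acts in the same program. Vimentin (*VIM*, an intermediate filament), N-cadherin (*CDH2*, an adhesion receptor) and fibronectin (*FN1*, an extracellular matrix glycoprotein) mark the mesenchymal state. *ESRP1* encodes a splicing factor of epithelial cells and *GRHL2* a transcription factor that maintains epithelial gene expression, and both are usually low where *ZEB1* is high.

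With 1 library per condition no difference could be tested, and no *p*-value is given. Each ratio is anti-*APC* siRNA over untransfected and is read against 2 descriptions of spread. The first is a 95% interval from read numbers (exact binomial for a ratio, exact Poisson for a level), which covers counting error only. The second is the central 95% of the log2 ratios of the 500 genes nearest in mean FPKM, which describes how far genes of like level differed between the same 2 libraries. Read numbers were recovered from the values: 375 of 2819 low genes shared 1 ratio, 1.10, which is that of the FPKM worth of 1 read in each library. From genes at 0 in one library, about 25700000 reads were estimated in untransfected and 23300000 in silenced cells. *APC*, the silenced gene, had 3.43 FPKM in silenced and 9.15 FPKM in untransfected cells, or 37.5% of the untransfected level. *AXIN2*, a WNT target, had 28.7 FPKM in silenced and 4.11 FPKM in untransfected cells. Of 11 genes of colon cancer lines, 5 had a mean of at least 1 FPKM (*EPCAM*, *KRT8*, *KRT18*, *KRT19* and *CDX2*), while *VIL1*, *CDH17*, *LGR5*, *CDX1*, *ASCL2* and *KRT20* were below it.

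The genes that stood higher after anti-*APC* siRNA were *FN1*, *VIM* and *ZEB1*, and the stretches just before their transcription starts are shown here for that reason. RefSeq promoters were found for 5 of the 10 genes, namely *ZEB1*, *ZEB2*, *VIM*, *CDH2* and *FN1*. They were placed on GRCh37 by exact match, and each line gives the 250 bases before the start nearest to the table's locus, 5′ to 3′ on the gene's strand. Capitals mark the E-box CACCTG or its reverse complement CAGGTG, the letters that SNAIL and ZEB zinc fingers recognize.
FN1 promoter (chr2:216300792-216301041, minus strand): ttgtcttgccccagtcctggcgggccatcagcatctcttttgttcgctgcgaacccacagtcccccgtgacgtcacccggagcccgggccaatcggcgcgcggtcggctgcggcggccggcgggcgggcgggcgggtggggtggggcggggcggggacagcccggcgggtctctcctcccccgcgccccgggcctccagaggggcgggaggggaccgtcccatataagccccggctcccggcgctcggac
VIM promoter (chr10:17269990-17270239, plus strand): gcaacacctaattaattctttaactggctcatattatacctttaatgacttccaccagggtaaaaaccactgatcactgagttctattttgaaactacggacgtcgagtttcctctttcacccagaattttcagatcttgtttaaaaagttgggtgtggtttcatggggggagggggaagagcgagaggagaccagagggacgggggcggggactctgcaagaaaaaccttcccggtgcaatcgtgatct
ZEB1 promoter (chr10:31607895-31608144, plus strand): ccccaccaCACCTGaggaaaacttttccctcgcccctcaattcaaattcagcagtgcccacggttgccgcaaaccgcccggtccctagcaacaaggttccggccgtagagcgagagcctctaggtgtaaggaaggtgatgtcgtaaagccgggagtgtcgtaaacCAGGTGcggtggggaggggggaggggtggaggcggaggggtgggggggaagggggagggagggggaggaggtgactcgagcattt
The *ZEB1* window holds 2 E-boxes, which begin 242 and 85 bases before the start. The windows of *FN1*, *VIM*, *ZEB2* and *CDH2* hold 0. Over all 35116 RefSeq starts, 17.5% have this E-box in the same 250 bases. TCAAAG, a core of the TCF/LEF site, and TGANTCA, the AP-1 site, were searched on both strands as well. Neither was found in the 5 windows, and over all starts they occur in 11.2% and 6.57%. A match or its absence describes these letters in these windows and nothing beyond them. The *FN1* window is 76.4% G or C, that of *ZEB1* 62.4% and that of *VIM* 46.0%, where the median over all starts is 58.0%.

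The 10 genes are described in 3 tiers of level, drawn for convenience, and their order from highest to lowest was the same in both libraries. The lowest tier was wide: in untransfected cells *TWIST1* had 0.272 FPKM and *CDH2* 0.0174 FPKM. *ESRP1* stood alone at the top. *SNAI1*, *GRHL2*, *FN1*, *VIM* and *ZEB1* followed between 0.848 and 8.73 FPKM, and *SNAI2*, *TWIST1*, *CDH2* and *ZEB2* had at most 0.304 FPKM in either library. FPKM is scaled by transcript length, so these levels can be set side by side. In untransfected cells the counting intervals of neighbours in this order overlapped for *SNAI2* and *TWIST1* and for *CDH2* and *ZEB2*. After anti-*APC* siRNA they also overlapped for *GRHL2* and *FN1* and for *TWIST1* and *CDH2*. The plot of levels shows this order.

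**Figure D1:**
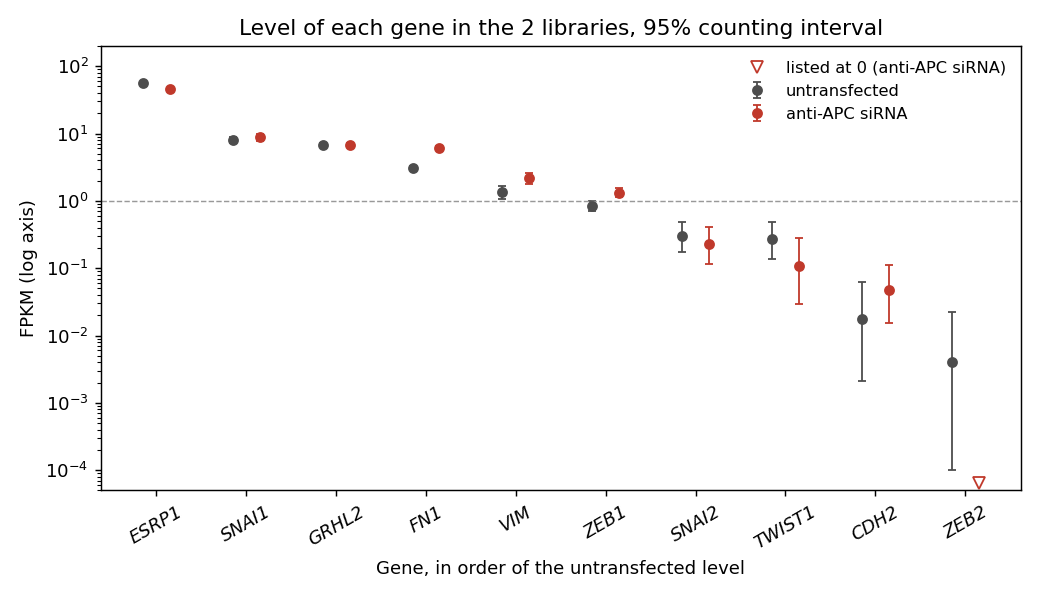
FPKM on a log axis of the 10 genes in the untransfected (grey) and the anti-APC siRNA library (red), 1 library each, with 95% Poisson counting intervals. *FN1*, *VIM* and *ZEB1* sit higher in red, *ESRP1* stands at the top with 45.2 and 55.4 FPKM, and the open triangle marks *ZEB2*, which is listed at 0 after anti-APC siRNA. The dashed line is 1 FPKM.

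Over all 12063 genes with a mean of at least 1 FPKM and above 0 in both libraries, 2.56% were at least 1.5-fold higher after anti-*APC* siRNA and 6.61% at least 1.5-fold lower, 9.17% in all. The median log2 ratio was -0.05. Of the 10 EMT genes, 6 passed this minimum (*SNAI1*, *ZEB1*, *VIM*, *FN1*, *ESRP1* and *GRHL2*). At least 1.5-fold higher were 3 of the 6, *FN1*, *VIM* and *ZEB1*, and 0 were at least 1.5-fold lower. The median log2 ratio of the 6 was 0.38. *ZEB1* passed the minimum through its anti-*APC* value, its untransfected level being under 1 FPKM. The genes were picked with results of these libraries known, so the count is a description.

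Among the mesenchymal markers *FN1* differed most clearly. Fibronectin is a ligand of integrins in the matrix and a widely used marker of EMT. *FN1* had 6.09 FPKM in silenced and 3.10 FPKM in untransfected cells, or about 1192 and 669 reads. The anti-*APC* level was 1.96-fold the untransfected one, a log2 ratio of 0.97 with a counting interval of 0.84 to 1.11. Genes of like level ranged from -0.90 to 0.54, and 4 of the 500 had a higher ratio, so *FN1* lay outside that range. It occupies chromosome 2 from 216225179 to 216300791 on the minus strand (hg19, the build of the table), and its reference transcript has 46 exons, several of which are alternatively spliced, a feature that a value per gene does not show.

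*VIM*, the type III intermediate filament of mesenchymal cells, had 2.17 FPKM in silenced and 1.35 FPKM in untransfected cells. This corresponds to about 109 and 75 reads. The ratio was 1.61-fold, or 0.69 on the log2 scale with a counting interval of 0.25 to 1.13. Its interval stayed above 0 but reached below 1.5-fold, and among the 500 genes of like level, whose range ended at 0.69, 13 had a higher ratio. The level remained low beside keratin filaments of epithelial cells: *KRT18* had 342 times the FPKM of *VIM* in untransfected cells and 155 times after anti-*APC* siRNA. *VIM* lies on chromosome 10 from 17270258 to 17279592, plus strand.

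*CDH2*, N-cadherin, was close to the detection limit. It had 0.0476 FPKM in silenced and 0.0174 FPKM in untransfected cells. These values equal 5 and 2 reads, the smallest whole numbers that give their ratio within 0.02%. The log2 ratio of 1.45 has a counting interval of -1.16 to 4.85, so a difference in *CDH2* was not detectable at this depth. *CDH1*, which encodes E-cadherin, had 254 times the FPKM of *CDH2* after anti-*APC* siRNA and 1094 times without. The quotients rest on the few *CDH2* reads. *CDH2* lies on chromosome 18 from 25530930 to 25757445, minus strand.

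*ZEB1* was the 1 of the 5 EMT transcription factors whose counting interval did not include 0. This zinc-finger and homeodomain repressor had 1.33 FPKM in silenced and 0.848 FPKM in untransfected cells, or about 184 and 129 reads. The ratio was 1.57-fold, and the log2 ratio 0.65 had a counting interval of 0.32 to 0.98. Genes of like level ranged from -1.24 to 1.24, and 30 of the 500 had a higher ratio, so *ZEB1* lay within the range of its neighbours in level. *ZEB1* lies on chromosome 10 from 31608101 to 31818742, plus strand. Its paralog *ZEB2* (chromosome 2, 145141942 to 145277958, minus strand) is listed at 0 after anti-*APC* siRNA and at 0.00402 FPKM in untransfected cells, the worth of 1 read. In untransfected cells *ZEB1* thus had 211 times the FPKM of *ZEB2*. No ratio is given for *ZEB2*, and 3 reads in the anti-*APC* library would have been 0.0139 FPKM.

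*SNAI1*, which encodes SNAIL, was the most abundant of the 5 transcription factors and hardly differed between the libraries. It had 8.73 FPKM in silenced and 8.12 FPKM in untransfected cells, or about 347 and 356 reads. Its log2 ratio was 0.11, with a counting interval of -0.11 to 0.32, so counting error alone leaves room for up to a 1.25-fold increase. *SNAI1* lies on chromosome 20 from 48599513 to 48605420, plus strand. *SNAI2*, which encodes the related factor SLUG, had 0.229 FPKM in silenced and 0.304 FPKM in untransfected cells. The values equal 11 and 16 reads, and the log2 ratio of -0.41 has a counting interval of -1.66 to 0.79. *SNAI1* stood at 38.2 times the FPKM of *SNAI2* after anti-*APC* siRNA and 26.7 times without. *SNAI2* lies on chromosome 8 from 49830239 to 49833999, minus strand.

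*TWIST1* had 0.108 FPKM in silenced and 0.272 FPKM in untransfected cells. The values equal 4 and 11 reads. The log2 ratio of -1.33 has a counting interval of -3.43 to 0.43, and 39 of the 500 genes of like level had a lower ratio. *TWIST1* was thus lower by value, but the difference was within counting error. It lies on chromosome 7 from 19155091 to 19157295, minus strand. None of *SNAI2*, *TWIST1*, *CDH2* and *ZEB2* had more than 16 reads in a library, which limits what could be detected in them.

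On the epithelial side, *ESRP1* was abundant and slightly lower after anti-*APC* siRNA. This splicing factor selects epithelial exons in transcripts such as *CD44* and *FGFR2*. *ESRP1* had 45.2 FPKM in silenced and 55.4 FPKM in untransfected cells, or about 3975 and 5364 reads. It thus stood at 81.6% of the untransfected level, with a log2 ratio of -0.29 and a counting interval of -0.35 to -0.23. The difference was larger than counting error but within the range of genes of like level, -0.53 to 0.45, of which 45 of 500 had a lower ratio. *ESRP1* lies on chromosome 8 from 95653364 to 95719694, plus strand. Its paralog *ESRP2*, at a locus that Cuffdiff shared with another gene, had 20.7 and 22.7 FPKM in the same order, so *ESRP1* exceeded *ESRP2* by 2.19 times after anti-*APC* siRNA and by 2.44 times without.

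*GRHL2*, a grainyhead-like factor that promotes *CDH1* and other junction genes, had 6.77 FPKM in silenced and 6.76 FPKM in untransfected cells. About 826 and 909 reads stand behind these values. The log2 ratio was 0.00 with a counting interval of -0.13 to 0.14, so a difference of more than 1.10-fold in either direction lay outside counting error. *GRHL2* lies on chromosome 8 from 102504668 to 102681952, plus strand. Its relatives *GRHL1* and *GRHL3* had 4.04 and 1.21 FPKM after anti-*APC* siRNA and 4.95 and 1.55 FPKM without, log2 ratios of -0.29 and -0.36.

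**Figure D2:**
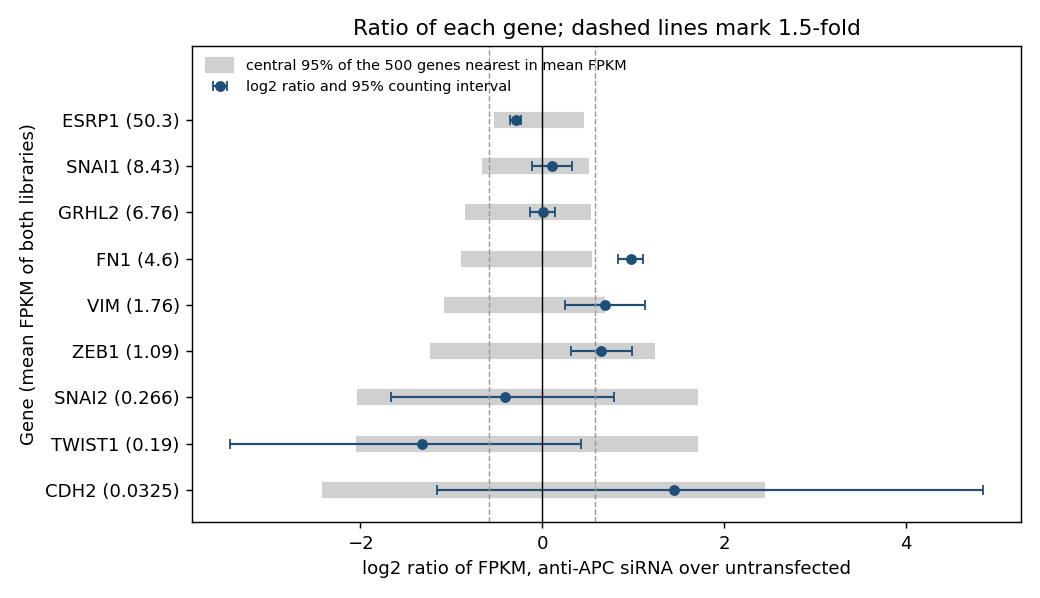
Log2 ratio of FPKM, anti-APC siRNA over untransfected, for the 9 genes above 0 in both libraries, ordered by mean FPKM, with 95% counting intervals (blue) and the central 95% of the 500 genes nearest in level (grey). *FN1* at 0.97 lies beyond its grey range, *VIM* at 0.69 lies at the edge of its range, and the intervals of *SNAI2*, *TWIST1* and *CDH2* span 0.

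The balance of *ZEB1* against the epithelial regulators can be read from the same values. *ESRP1* had 65.3 times the FPKM of *ZEB1* in untransfected cells and 34.0 times after anti-*APC* siRNA. *GRHL2* had 7.97 times and 5.09 times the FPKM of *ZEB1*. The epithelial regulators exceeded *ZEB1* in both libraries, by a smaller factor after anti-*APC* siRNA. These factors restate the ratios given above and add no further difference. The log2 ratio of *GRHL2* was 0.00, and those of *ZEB1* and *ESRP1* lay within the range of genes of like level. *CDH1* had 6.13 times the FPKM of *FN1* without and 1.99 times with anti-*APC* siRNA.

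**Figure D3:**
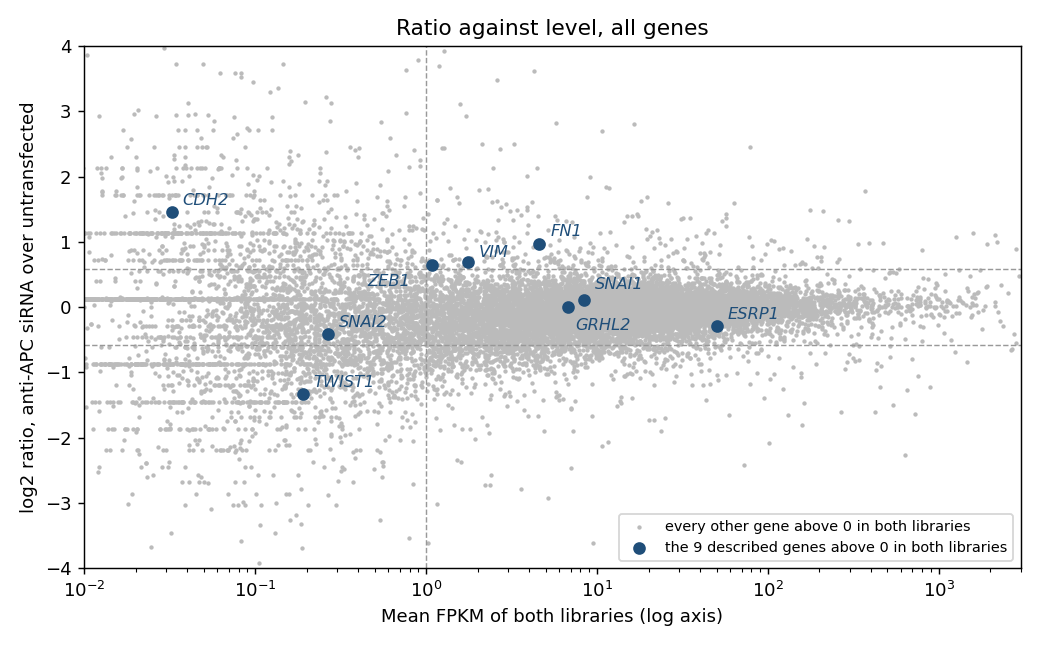
Log2 ratio (anti-APC siRNA over untransfected) against mean FPKM on a log axis, with the 9 genes in blue and other genes in grey; genes beyond the axes are not drawn. *FN1*, *VIM* and *ZEB1* lie above the upper 1.5-fold line and right of 1 FPKM, and the horizontal rows at the left are ratios of small whole read numbers.

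Genes of epithelial junctions and identity were mostly lower in silenced cells. Of 25 listed genes, 24 were in the table under these symbols and had a mean of at least 1 FPKM. Of the 24, 20 had a lower value after anti-*APC* siRNA, compared with 58.6% of all genes at that level. The median log2 ratio of the list was -0.29, against -0.05 over all 12063 genes. At least 1.5-fold lower were 5 of the 24, where the share over all genes was 6.61%, and 0 were 1.5-fold higher, where it was 2.56%. *CDH1*, E-cadherin, the junction gene that SNAIL and ZEB factors repress, had 12.1 FPKM in silenced and 19.0 FPKM in untransfected cells. Its log2 ratio was -0.65 with a counting interval of -0.75 to -0.56, and genes of like level ranged from -0.67 to 0.47. The tight junction claudins *CLDN3* and *CLDN4* had log2 ratios of -0.87 and -0.78. *LLGL2*, a polarity gene, had 17.1 FPKM with and 26.8 FPKM without anti-*APC* siRNA, and *PKP3*, a desmosomal plakophilin, had 16.6 and 25.9 FPKM. The most abundant genes of the list, the keratins *KRT8* and *KRT18*, stood at 81.3% and 73.2% of their untransfected levels. Fewer cells expressing a gene and less of its RNA per cell cannot be told apart in these bulk libraries.

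Other epithelial regulators differed unequally. Of 14, 11 reached a mean of 1 FPKM, their median log2 ratio was -0.19 (-0.05 over all genes), and 2 of the 11 were at least 1.5-fold lower, where the share over all genes was 6.61%. These were the epithelial ETS factors *ELF3* and *EHF*. *ELF3* had 8.90 FPKM in silenced and 23.3 FPKM in untransfected cells, a log2 ratio of -1.39, and *EHF* had 5.69 and 12.9 FPKM, a log2 ratio of -1.18. Both lay below the range of genes of like level. *KLF5*, the most abundant gene of this list, had 29.1 and 26.2 FPKM. Of the 11, 9 had a lower value after anti-*APC* siRNA, compared with 58.6% of all genes at that level. The 2 higher were *KLF5* and *HNF4A*, the latter at a shared locus, with log2 ratios of 0.15 and 0.44. Below the minimum level, *OVOL2* was higher, with 0.968 FPKM in silenced and 0.536 FPKM in untransfected cells. Its log2 ratio was 0.85, with a counting interval of 0.05 to 1.69. *FOXA1* had a log2 ratio of -0.02, and *FOXA2* had 0 and 1 reads.

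Further EMT transcription factors differed in both directions. Of 16, 9 reached a mean of 1 FPKM, with a median log2 ratio of 0.08. Of the 9, 1 was at least 1.5-fold higher and 2 were lower, where the shares over all genes were 2.56% and 6.61%. *TWIST2*, *PRRX1*, *GSC* and *TCF4* are listed at 0 in both libraries. *TCF4* here is the gene on chromosome 18, at a locus shared with another gene, and not *TCF7L2*, which was formerly called TCF4. *SOX4*, an HMG-box factor, was the 1 gene at least 1.5-fold higher, with 44.7 FPKM in silenced and 17.5 FPKM in untransfected cells, a log2 ratio of 1.35. *ID1* and *ID3*, inhibitors of helix-loop-helix factors such as TWIST1, were at least 1.5-fold lower. *ID1* had 65.8 and 141 FPKM, a log2 ratio of -1.10, and *ID3* had 21.8 and 34.9 FPKM, a log2 ratio of -0.68. *HMGA2*, the most abundant, had 147 and 106 FPKM, a log2 ratio of 0.48.

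Most other mesenchymal genes were lower, where *FN1* and *VIM* were higher. Of 25, 14 reached a mean of 1 FPKM, and 12 of these 14 had a lower value after anti-*APC* siRNA. Over all genes at that level 58.6% had a lower value. The median log2 ratio was -0.42, against -0.05 over all genes. At least 1.5-fold lower were 6 of the 14, where the share over all genes was 6.61%, and 0 were 1.5-fold higher, where it was 2.56%. Below the minimum level, *TNC* (72 reads in silenced and 1 in untransfected cells) and *FBN2* (21 and 1 reads), both matrix genes of the same list, were higher in silenced cells, with log2 ratios of 6.30 and 4.52. *COL5A1* (1 and 4 reads) was lower by value, with a log2 ratio of -1.87 and a counting interval of -7.49 to 1.47. *SPARC*, *FBN1*, *LOX* and *TGFBI* had log2 ratios between 0.13 and 0.45, with counting intervals that include 0. *S100A4*, a calcium-binding protein of motile cells, had 17.7 FPKM in silenced and 39.1 FPKM in untransfected cells, a log2 ratio of -1.14. The receptor tyrosine kinase *AXL* had 13.7 and 24.6 FPKM. *LOXL2*, a matrix cross-linking enzyme at a locus shared with another gene, had 2.91 and 5.02 FPKM, and *COL6A1*, a collagen VI chain, had 7.31 and 11.8 FPKM. *MSN* and *VCAN*, the most abundant of the list, had log2 ratios of -0.60 and -0.16. *POSTN*, *CDH11*, *MMP2* and *CDH6* are listed at 0 in both libraries.

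Corepressors of SNAIL and ZEB proteins and the enzymes that control their turnover had a median ratio like that of all genes. Of 24, 23 were in the table under these symbols, and all 23 reached a mean of 1 FPKM. Their median log2 ratio of -0.05 equalled that of all genes. Of the 23, 0 passed 1.5-fold in either direction, where the share over all genes was 9.17%. *HDAC1*, a histone deacetylase, had 128 and 142 FPKM, and *PRMT5*, an arginine methyltransferase, had 142 and 158 FPKM. Of 13 genes whose exons are selected by ESRP proteins, 12 reached a mean of 1 FPKM with a median log2 ratio of -0.12. *CD44* was the 1 gene of the 12 at least 1.5-fold lower (6.61% over all genes), with 71.3 FPKM in silenced and 111 FPKM in untransfected cells. *SLK* had 44.1 and 36.7 FPKM. *CTNND1* is marked as failed and listed at 0 in both libraries. Values per gene do not show which exons were used.

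**Figure D4:**
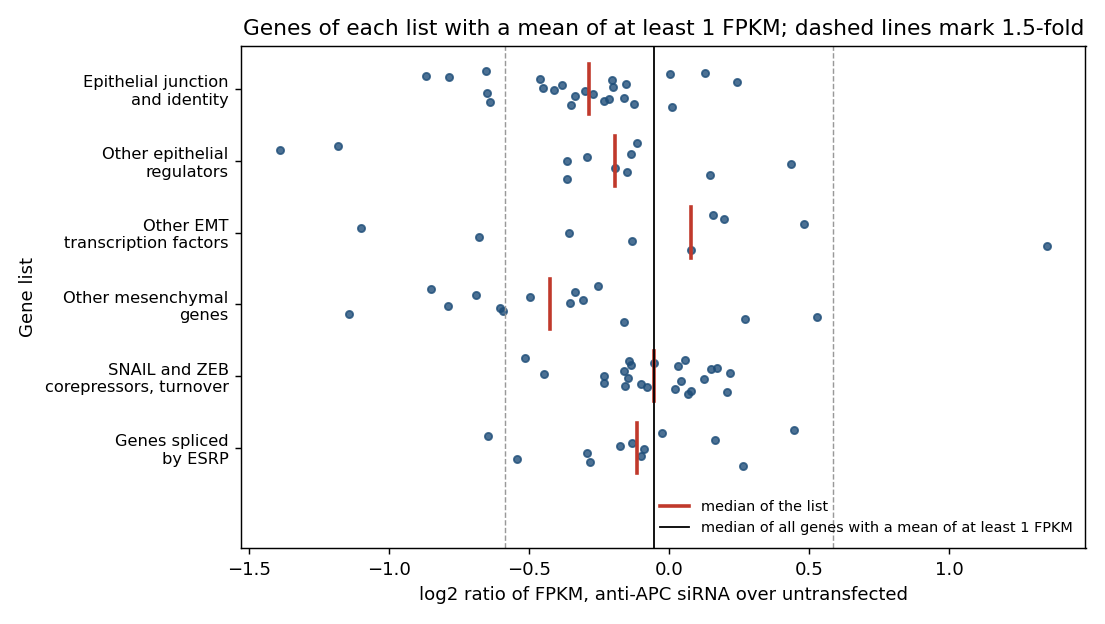
Log2 ratio (anti-APC siRNA over untransfected) of the genes of 6 lists with a mean of at least 1 FPKM, each point 1 gene, with the list median (red) and the median of all such genes (black, -0.05). The medians of the epithelial junction list (-0.29) and the other mesenchymal genes (-0.42) both lie left of the black line, and *SOX4* at 1.35 is the point farthest right.

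Most markers of other cell types were below 1 FPKM, with *COL1A1* and *CD68* above it. Of 9 fibroblast markers, 8 had a mean below 1 FPKM, and the summed FPKM of the list was 3.20 after anti-*APC* siRNA and 2.91 without. *COL1A1* made up most of it, with 3.08 and 2.85 FPKM, while *COL1A2*, *COL3A1*, *DCN*, *PDGFRA* and *FAP* are listed at 0 in 1 library and *LUM* in both. *THY1* had 0.0493 and 0.0269 FPKM. Of 8 endothelial and leukocyte markers, 7 were below 1 FPKM, and *CD68* had 5.01 FPKM with and 8.91 FPKM without anti-*APC* siRNA. *CD68* was thus at least 1.5-fold lower (6.61% over all genes), with a log2 ratio of -0.83. *CD14* had 0.172 and 0.182 FPKM.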

How the data were processed

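RNA-seq libraries of HCT-116 cells (anti-*APC* siRNA, scrambled siRNA and untransfected, 1 each) were single-read TruSeq libraries. Per the labels and the methods, the authors assigned reads with Cufflinks and compared libraries with Cuffdiff on hg19; versions, aligner and annotation are not given in the sources used here. The deposited FPKM of 2 libraries, anti-*APC* siRNA and untransfected, were used. Columns of the authors' own comparison (natural log ratio, test statistic, *p*, *q*, significance) were not used. All 269 rows with status FAIL are at 0 in both libraries and were left out. The status OK is held by 16372 rows.

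Log2 ratios were computed without a pseudocount, and calls asked for 1.5-fold and a mean of at least 1 FPKM. The FPKM of 1 read was taken from genes at 0 in the other library (163 rows for the untransfected and 182 for the anti-*APC* library) with canonical transcript lengths of GENCODE 44 on GRCh37. Reads are FPKM times length times depth, or, for genes with few reads, the smallest whole numbers that give the ratio within 0.02%. These estimates depend on the annotation. Depth recovery, calls and intervals were tried on simulated Poisson counts. The simulation used the same transcript lengths throughout, so it does not cover errors of length, isoform or annotation. No test across samples is possible with 1 library per group. Alternatives were 2 pseudocounts, median subtraction, other minimums of level and fold, status OK only, and loci with 1 gene. Read numbers from the longest coding transcript were an alternative chosen after seeing the data. The members and lists were chosen with earlier results of these data known. Named genes are the 10 members, *APC*, *AXIN2*, and from each of 9 lists up to 4 genes past 1.5-fold with the largest ratios and the 2 most abundant. Other genes (*PKP3*, *ESRP2*, *GRHL1*, *GRHL3*, *HNF4A*, *OVOL2*, *COL5A1*, those listed at 0, *TNC* and *FBN2* among them) were named after their values were seen. Promoters are RefSeq sequences (GRCh38.p14 table) matched exactly to GRCh37, with those on chromosome 8 left out before matching. Software versions were scipy 1.17.1, matplotlib 3.10.9, pandas 2.3.3 and numpy 2.4.6 under Python 3.11.15.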

Additional observations from a re-analysis of the deposited data

How the results depend on the processing

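No paired analysis was possible because each group has 1 library, and for the same reason no library could be left out. The 3 EMT genes at least 1.5-fold higher became 1 (*FN1*) with a pseudocount of 1 FPKM, 0 with a mean of at least 5 FPKM and 0 at 2-fold. They stayed 3 with a pseudocount of 0.1 FPKM, median subtraction, status OK only and loci with 1 gene. Without a minimum level 4 were higher (*CDH2* in addition) and 1 (*TWIST1*) was lower. The log2 ratio of *FN1* was 0.79 with a pseudocount of 1 FPKM, and the ratios of the other 8 genes stayed within their counting intervals under both pseudocounts and median subtraction. Over all genes, those at least 1.5-fold higher (309) numbered 1084 without a minimum, 186 at 5 FPKM, 182 at loci with 1 gene and 115 at 2-fold. Those lower (797) numbered 526 with a pseudocount of 1 FPKM, 2078 without a minimum, 347 at 5 FPKM and 165 at 2-fold. At 2-fold the changed genes were 0 for the epithelial junction list, 1 for other mesenchymal genes, 0 for genes spliced by ESRP proteins and 0 for endothelial and leukocyte markers. Without a minimum they were 1 for fibroblast markers, 4 for endothelial and leukocyte markers and 2 for colon cancer line genes. The list medians moved by less than their own spread, although at loci with 1 gene those of further EMT transcription factors (-0.03) and of corepressors (0.03) lay on the other side of 0. Read numbers from the longest coding transcript stayed within the counting intervals for all 6 genes above 1 FPKM.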

Other observations

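Of the other mesenchymal genes below 1 FPKM, the matrix genes *TNC* and *FBN2* were nearly silent in untransfected cells and had reads after anti-*APC* siRNA. They were singled out after their values were seen. *TNC*, which encodes tenascin C (chromosome 9, 117782805 to 117880486, minus strand), had 0.386 FPKM in silenced and 0.00489 FPKM in untransfected cells. These values equal 72 and 1 reads, a log2 ratio of 6.30 with a counting interval of 3.78 to 11.62. *FBN2*, which encodes fibrillin 2 (chromosome 5, 127593601 to 127873735, minus strand), had 0.0791 and 0.00344 FPKM. These equal 21 and 1 reads, a log2 ratio of 4.52 with a counting interval of 1.89 to 9.89. Of the 500 genes nearest in level, 0 had a higher ratio than *TNC* and 0 a higher ratio than *FBN2*. With a pseudocount of 1 FPKM the log2 ratios were 0.46 for *TNC* and 0.10 for *FBN2*.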
